A study of Mus musculus with 8 samples.

Results

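The transcripts described here are those of 33 genes of the core autophagy machinery and its cargo receptors, chosen by symbol among 54838 gene rows of the count tables, and every one of the 33 was found and was measured well enough to be tested. They were followed in 8 RNA libraries of mouse embryonic fibroblasts, the connective tissue cells grown from mouse embryos, in 4 groups of 2. The first group is n-Sen, fibroblasts arrested in G2 by RO3306, an inhibitor of CDK1, given nutlin3a for a final 48 h, and grown on in 100 nM BI-2536 for 14 days. Nutlin3a frees p53 from its inhibitor MDM2, and BI-2536, an inhibitor of the mitotic kinase PLK1, was used to clear cells that still divided. The second group is proliferating fibroblasts. The remaining groups are n-Sen fibroblasts that then spent 24 h in HEPES-buffered medium whose pH had been adjusted, either alkaline medium or control medium; the pH values are not given in the labels. All 4 groups grew in DMEM with fetal bovine serum under low oxygen. One protocol text covers all libraries, so the groups rest on the titles and treatment labels, and separate cultures are not stated, so p-values measure the spread between these libraries, which may be technical.

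Autophagy encloses cytoplasm in a double membrane, the autophagosome, and delivers it to the lysosome for breakdown. The ULK kinase complex starts the process, a class III PI3-kinase complex marks the membrane with PI3P, ATG9 and ATG2 proteins supply lipid, and a pair of ubiquitin-like conjugation systems attaches ATG8 proteins (the LC3 and GABARAP families) to the membrane, where cargo receptors such as p62 bind them. In fibroblasts the pathway runs at a basal rate and is held down by the kinase complex mTORC1. ATG8 proteins and receptors are themselves consumed in the lysosome, so a transcript level is no measure of autophagic flux, which was not assayed in these libraries.

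Total counts ran from 40608517 to 54183060 per library. Fibroblast markers were present in every group, with summed levels of 39080 and 38247 CPM (counts scaled to library size) in n-Sen, against 17792 and 17459 CPM in proliferating cells. Fn1 made up much of that sum (20253 CPM in n-Sen, 5515 CPM in proliferating cells); 10 of the 12 markers were higher in n-Sen and 2 lower, Thy1 and Pdgfra (9.81 CPM in n-Sen, 87.9 CPM in proliferating cells). In alkaline against control medium, 3 of the 12 were higher, 7 lower and 2 did not pass. Markers of macrophages, cells rich in lysosomes, moved with the first comparison: 20 of 20 were higher in n-Sen, their sum was 1405 and 1502 CPM in n-Sen against 70.9 and 63.4 CPM in proliferating cells, and none was at 0 in any group. Between alkaline and control medium, 11 of the 20 were lower in alkaline medium, none was higher, and 9 did not pass (summed 1279 and 1279 CPM in alkaline medium, 1466 and 1388 CPM in control medium). Epithelial and mesothelial markers summed to 10.3 and 10.5 CPM in n-Sen and 98.5 and 94.0 CPM in proliferating cells (1 higher and 6 lower of 7 tested), and endothelial markers to 7.70 and 6.70 CPM in n-Sen and 33.5 and 27.1 CPM in proliferating cells (1 higher and 2 lower of 4 tested). Neural and glial markers summed to 128 and 133 CPM in n-Sen and 53.4 and 52.9 CPM in proliferating cells (3 higher and 1 lower of 6 tested). Of 5 muscle markers tested, 4 were lower in n-Sen and 1 higher, Des, which carried the list's sum of 98.9 and 104 CPM in n-Sen and 92.6 and 84.9 CPM in proliferating cells. Epcam, Krt8, Krt5, Cldn5, Myod1, Myog, Myh3 and Sox10 were at 0 in n-Sen. The part of other cell types in the values below was not tested. In bulk RNA, fewer cells of a type and less RNA per cell cannot be told apart.

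The promoters of 3 members are printed here, 2 with a match to the element described next and 1, that of Sqstm1, without. The letters CACGTG are the core of the element through which the transcription factor TFEB acts on lysosome and autophagy genes, and TCACGTG is a longer match that contains it. Promoters, taken as 250 bases before to 50 bases after the RefSeq start on GRCm38.p6, were at hand for 27 of the 33 members (31 promoters). On either strand, CACGTG was in 4 of the 31 (12.9%), those of Atg3, Atg5, Atg7 and Atg14, against 7.15% of 32851 mouse promoters. TCACGTG was in 3 (9.68%), those of Atg3, Atg7 and Atg14, against 3.77%. The AP-1 site TGACTCA and the forkhead site GTAAACA were in none of the 31, against 5.20% and 3.65% of all promoters. Sqstm1 is shown because it was the one member called higher in every comparison below, though not under every alternative, and its window holds none of these letter strings. Atg3 is shown for its repeated match, and Atg14 for a match at the start site. Each is written 5′ to 3′ on the gene's own strand, with TCACGTG or its reverse complement in capitals. The first match of Atg3 begins 95 bases before the start, and a second, palindromic one follows closer to it. The match of Atg14 begins 1 base before the start. A match is a string of letters and was not examined for binding. The windows are chr11:50210771-50211070 (minus strand) for Sqstm1, chr16:45158579-45158878 (plus strand) for Atg3 and chr14:47568385-47568684 (minus strand) for Atg14.
Sqstm1: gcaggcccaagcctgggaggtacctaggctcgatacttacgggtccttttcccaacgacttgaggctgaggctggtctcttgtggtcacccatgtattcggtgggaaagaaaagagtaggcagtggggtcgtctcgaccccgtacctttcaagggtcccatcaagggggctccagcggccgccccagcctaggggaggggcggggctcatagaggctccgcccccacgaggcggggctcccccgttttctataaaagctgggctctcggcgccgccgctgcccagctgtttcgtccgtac
Atg3: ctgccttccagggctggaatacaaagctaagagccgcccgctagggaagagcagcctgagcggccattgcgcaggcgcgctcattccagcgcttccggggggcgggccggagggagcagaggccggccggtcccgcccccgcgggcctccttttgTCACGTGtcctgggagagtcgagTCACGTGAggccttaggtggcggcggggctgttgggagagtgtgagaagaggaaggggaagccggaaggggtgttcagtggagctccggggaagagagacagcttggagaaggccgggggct
Atg14: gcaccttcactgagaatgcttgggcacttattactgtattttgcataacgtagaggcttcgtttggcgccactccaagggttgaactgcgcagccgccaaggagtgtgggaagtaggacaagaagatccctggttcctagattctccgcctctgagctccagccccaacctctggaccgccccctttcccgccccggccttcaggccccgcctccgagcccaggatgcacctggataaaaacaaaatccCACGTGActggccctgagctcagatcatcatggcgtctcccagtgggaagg

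The first comparison asks how the autophagy transcripts of n-Sen cells differ from those of proliferating cells. Most of the machinery was more abundant in n-Sen. In the same libraries the macrophage, fibroblast, neural and muscle marker sums were higher, and the epithelial and endothelial sums lower, as given above. Of the 33 genes, 29 were higher (87.9%), 2 lower, Atg4d and Atg2b, and 2 did not pass, Atg5 and Atg16l1, by edgeR's quasi-likelihood test at an adjusted p under 0.05. Across all 19264 genes tested, 67.1% were called, 34.0% higher and 33.1% lower. The groups did not overlap for 30 genes that were higher in n-Sen and 2 that were lower, against 41.9% and 41.5% of all genes. Without n-Sen replicate 2, and in DESeq2, 1 gene was lower (Atg4d). The median log2 fold change of the 33 genes was 0.57, with quartiles of 0.34 and 0.92, against 0.0015 with quartiles of -0.60 and 0.69 for all genes. The shifts were modest, as 4 genes, Ulk2, Sqstm1, Wipi1 and Map1lc3b, rose by at least 1 on the log2 scale (17.2% of all genes did), and the whole range ran from -0.64 to 1.13. Senescence, the inhibitors used to reach it and the 14 days in culture cannot be told apart in this comparison.

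**Figure D1:**
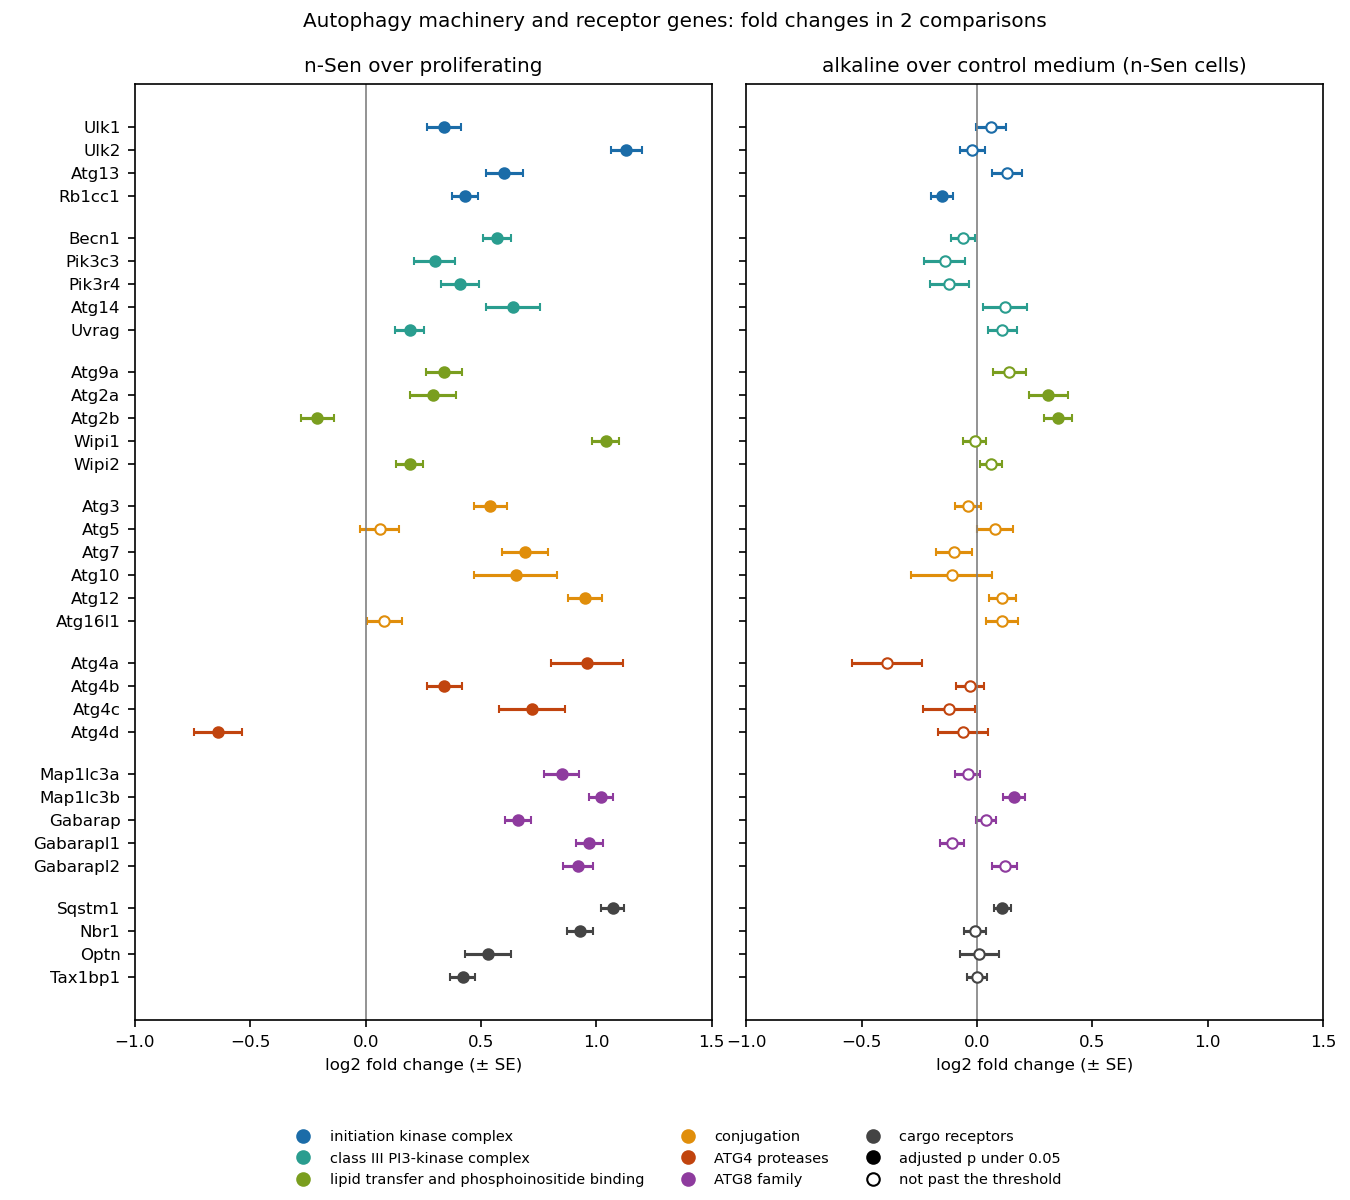
Log2 fold change with its SE of each of the 33 genes (rows, coloured by role), n-Sen over proliferating on the left and alkaline over control medium on the right; filled points passed an adjusted p of 0.05. On the left 29 filled points lie right of 0 and 2 (Atg2b and Atg4d) left of it, while on the right 28 of 33 points are open.

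The initiation complex pairs a ULK kinase with the adaptor Atg13 and the scaffold Rb1cc1. All 4 of its transcripts among the 33 were higher in n-Sen, with a median of 0.51. Atg101, a further subunit counted below among the further factors, did not pass (0.19 ± 0.106, adjusted p 0.134). Ulk2 (chromosome 11, 61775649 to 61855073, minus strand, mm10), one of the paralogous kinases, had 91.5 and 89.8 CPM in n-Sen, against 43.9 and 39.0 CPM in proliferating cells. Ulk1 (chromosome 5, 110784488 to 110810097), the kinase best known as the target of mTORC1 and AMPK, had 45.2 and 47.1 CPM in n-Sen, against 36.8 and 36.1 CPM in proliferating cells. Neither gene's groups overlapped, and the change was 1.13 ± 0.068 for Ulk2 (log2 ± SE, a fold of 2.19, adjusted p 1.09e-10), the largest of the 33, and 0.34 ± 0.073 for Ulk1 (adjusted p 0.000465). Rb1cc1 (chromosome 1, 6206197 to 6276648) had 149 and 142 CPM in n-Sen, against 105 and 110 CPM in proliferating cells, a change of 0.43 ± 0.056 (adjusted p 2.57e-06). Atg13 rose by 0.60 ± 0.080.

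The class III PI3-kinase complex consists of the lipid kinase Pik3c3 (VPS34), the regulatory subunit Pik3r4, the scaffold Becn1 (beclin 1), and either Atg14, which directs it to autophagosome formation, or Uvrag, which directs it to endosomes. All 5 transcripts were higher in n-Sen, with a median of 0.41. Becn1 (chromosome 11, 101285952 to 101302286) had 91.4 and 92.6 CPM in n-Sen, against 60.7 and 63.1 CPM in proliferating cells, a change of 0.57 ± 0.061 (adjusted p 2.09e-07). Of the alternative partners, Atg14 rose by 0.64 ± 0.117 (15.3 ± 0.785 CPM in n-Sen, 9.80 ± 0.693 CPM in proliferating cells, SD, n = 2 each). Uvrag rose by 0.19 ± 0.062 (67.8 ± 0.183 CPM in n-Sen, 59.6 ± 0.510 CPM in proliferating cells). Pik3r4 rose by 0.41 ± 0.082 and Pik3c3 by 0.30 ± 0.089. The call of Uvrag (adjusted p 0.0132) was lost without n-Sen replicate 1 (0.0552), without n-Sen replicate 2 (0.0811) and with scaling by library totals (0.0576). Becn1 shares 43.9% of its exon length with Cntd1 on the opposite strand, and Cntd1 also rose, by 0.64 ± 0.103; the labels do not say whether counting used strand, so the pair's reads may be mixed.

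The lipid supply and PI3P binding group was uneven, with 4 higher, 1 lower and a median of 0.29. Wipi1 (chromosome 11, 109573331 to 109611967), a PI3P-binding WD-repeat protein, had 123 and 125 CPM in n-Sen, against 61.5 and 59.4 CPM in proliferating cells, a change of 1.04 ± 0.058 (adjusted p 3.71e-11). Its paralog Wipi2, which recruits Atg16l1 to the membrane, was at 109 and 112 CPM in n-Sen and 101 and 92.3 CPM in proliferating cells, a change of 0.19 ± 0.060. The ATG2 lipid-transfer proteins went opposite ways. Atg2a (chromosome 19, 6241668 to 6262335) had 19.4 and 20.2 CPM in n-Sen, against 17.1 and 15.4 CPM in proliferating cells (0.29 ± 0.10, adjusted p 0.0166). Atg2b (chromosome 12, 105616136 to 105685211) had 54.2 and 47.8 CPM in n-Sen, against 58.5 and 59.3 CPM in proliferating cells (-0.21 ± 0.072, adjusted p 0.0166). These are small differences that rest on single libraries. Without n-Sen replicate 2, Atg2b was at -0.12 (adjusted p 0.285), Atg2a at 0.26 (0.0883) and Wipi2 at 0.17 (0.0777). Without proliferating replicate 2, Atg2a was at 0.22 (0.127) and Wipi2 at 0.12 (0.0874), and in DESeq2 neither Atg2a (0.0553) nor Atg2b (0.0565) passed. Atg9a, the scramblase that brings in seed vesicles, rose by 0.34 ± 0.078, and 31.8% of its exon length is shared with Gm29253 on the same strand (-0.13 ± 0.103).

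In the conjugation systems, Atg7 is the shared E1-like enzyme, Atg10 and Atg3 are the E2-like enzymes, and the conjugate of Atg12 with Atg5, held by Atg16l1, acts like an E3 ligase. The enzymes and the ubiquitin-like protein were higher in n-Sen while Atg5 and Atg16l1 did not pass. Atg12 rose by 0.95 ± 0.074 (61.6 ± 3.75 CPM in n-Sen, 31.9 ± 0.694 CPM in proliferating cells, SD, n = 2 each). Atg7 rose by 0.69 ± 0.099, Atg10 by 0.65 ± 0.179 and Atg3 by 0.54 ± 0.072. Atg5 (chromosome 10, 44268358 to 44364291) had 29.7 and 29.4 CPM in n-Sen, against 27.4 and 29.4 CPM in proliferating cells, so the groups touched (0.06 ± 0.083, adjusted p 0.567). Atg16l1 had 37.1 and 36.7 CPM in n-Sen, against 35.7 and 34.1 CPM in proliferating cells (0.08 ± 0.076, adjusted p 0.357). Both estimates stayed between 0.00 and 0.12 under every alternative run.

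The ATG4 cysteine proteases trim ATG8 proteins before conjugation and release them afterwards. Of the 4 paralogs 3 were higher in n-Sen and 1 was lower. Atg4a rose by 0.96 ± 0.157 at low counts (8.24 ± 0.708 CPM in n-Sen, 4.24 ± 0.288 CPM in proliferating cells, SD, n = 2 each), Atg4c by 0.72 ± 0.144 and Atg4b, the paralog with the broadest activity, by 0.34 ± 0.076. The value of Atg4b was 0.22 without proliferating replicate 2 (adjusted p 0.0126) and 0.46 without proliferating replicate 1. Atg4d (chromosome 9, 21265293 to 21277772) had 12.5 and 14.2 CPM in n-Sen, against 21.0 and 20.7 CPM in proliferating cells, without overlap. That is a fall by 0.64 on the log2 scale (SE 0.105, adjusted p 3.95e-05), and the estimate stayed between -0.73 and -0.54 in every alternative. Per kilobase of exon, Atg4d made up 11.0% and 11.7% of the summed ATG4 level in n-Sen libraries, against 22.8% and 22.7% in proliferating libraries. The opposite-strand gene Kri1 shares 1405 bp with Atg4d (19.3% of its exon length) and also fell, by 0.79 on the log2 scale (16.3 ± 1.98 CPM in n-Sen, 28.4 ± 0.0599 CPM in proliferating cells), so the fall of Atg4d is uncertain to the extent that reads were not separated by strand.

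All 5 members of the ATG8 family were higher in n-Sen, with log2 fold changes of 0.66 to 1.02 and a median of 0.92. Map1lc3b (chromosome 8, 121590361 to 121598760), which encodes the LC3B protein used as the standard autophagosome marker, had 216 and 226 CPM in n-Sen, against 111 and 107 CPM in proliferating cells. Gabarapl1 (chromosome 6, 129533160 to 129542346), of the GABARAP branch, had 123 and 126 CPM in n-Sen, against 64.4 and 62.4 CPM in proliferating cells. Neither gene's groups overlapped. Map1lc3b changed by 1.02 ± 0.054 (a fold of 2.03, adjusted p 2.03e-11) and Gabarapl1 by 0.97 ± 0.058 (a fold of 1.96, adjusted p 9.14e-11). Gabarapl2 rose by 0.92 ± 0.066, Map1lc3a by 0.85 ± 0.076 and Gabarap by 0.66 ± 0.058. Gabarapl1 shares 28.3% of its exon length with 1700101I11Rik on the opposite strand, which also rose (0.91 ± 0.115), and like Atg2a it had a fractional count in all 8 libraries, so the levels of both are uncertain in part. Over the family, the summed level per kilobase was 339 and 363 in n-Sen libraries, against 209 and 194 in proliferating libraries.

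Cargo receptors bind ubiquitin on one side and ATG8 proteins on the other, and all 4 were higher in n-Sen, with a median of 0.73. Sqstm1 (chromosome 11, 50199366 to 50210827, minus strand), which encodes p62, had 751 and 787 CPM in n-Sen, against 383 and 353 CPM in proliferating cells, a change of 1.07 ± 0.050 (adjusted p 3.87e-12). Nbr1, which cooperates with p62 in aggregate clearance, rose by 0.93 ± 0.057 (134 ± 0.0991 CPM in n-Sen, 70.6 ± 2.48 CPM in proliferating cells, SD, n = 2 each). Optn, the receptor phosphorylated by TBK1, rose by 0.53 ± 0.098 and Tax1bp1 by 0.42 ± 0.053. The opposite-strand neighbour Mrnip, which overlaps 17.3% of the Sqstm1 exons, was at 0.918 ± 0.509 CPM in n-Sen and 1.42 ± 0.372 CPM in proliferating cells, and did not pass (-0.60 ± 0.391).

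In all, 12 of the 33 genes share exon sequence with another annotated gene. Among the 21 that do not, 19 were higher in n-Sen, none was lower, and 2 did not pass, with a median of 0.65. These 21 still include genes with fractional counts, such as Gabarapl2 in 7 libraries and Gabarap and Atg4a in 6 each. Among the overlapping 12, counts were fractional for Sqstm1 in 7 libraries and for Map1lc3b, Becn1 and Uvrag in 6 each. The 2 members called lower both belong to the overlapping 12.

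**Figure D2:**
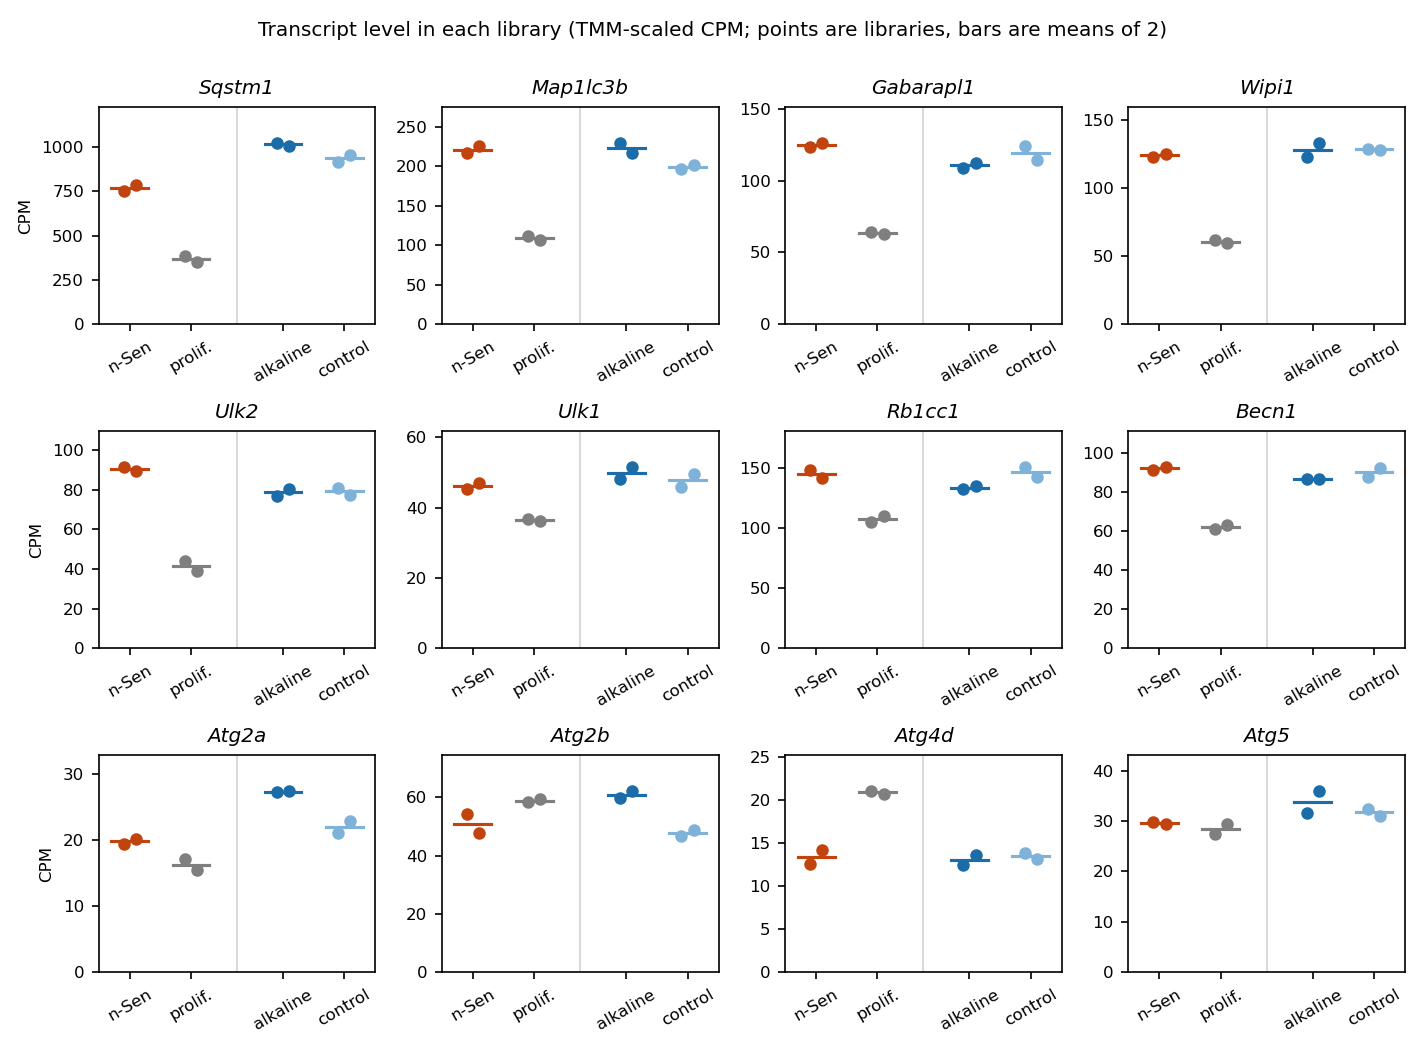
TMM-scaled CPM in each of the 8 libraries for 12 of the genes; points are libraries, bars are means of 2, every axis starts at 0, and the grey line parts the 2 deposited tables. Sqstm1, Map1lc3b, Gabarapl1, Wipi1 and Ulk2 have n-Sen levels near 2 times those of proliferating cells, and Atg4d is lower. Between alkaline and control medium the libraries of Sqstm1, Map1lc3b, Gabarapl1, Rb1cc1, Becn1, Atg2a and Atg2b lie apart. Of these, Atg2a and Atg2b have the largest fold changes.

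Levels of different genes were compared per kilobase of exon (the union of all annotated exons). Sqstm1 and Gabarap ranked 1 and 2 in all 4 groups. Sqstm1 averaged 229 ± 7.70 CPM per kilobase in n-Sen and 110 ± 6.41 in proliferating cells, and Gabarap averaged 161 ± 7.26 in n-Sen and 102 ± 8.35 in proliferating cells (SD, n = 2 each). In proliferating cells this pair lay within its spread of each other. Map1lc3a and Gabarapl1 followed at 66.8 ± 7.12 and 61.8 ± 1.07 in n-Sen, which also lay within their spread. At the low end, Atg4d was last in n-Sen at 1.84 ± 0.166 CPM per kilobase, below Atg2a at 2.58 ± 0.0716, whereas in proliferating cells Atg4a was last at 1.59 ± 0.108 and Atg4d stood at 2.87 ± 0.0241. The place of Map1lc3b depends on the length used, since its annotated exons sum to 7517 bp and its principal transcript has 2532 bp: it ranked 6 of 33 in n-Sen by the sum and 3 by the principal transcript, a length added after the data were seen. Other places moved too, as Wipi2 ranked 14 by the sum and 7 by the principal transcript in n-Sen, and 12 and 3 in proliferating cells. Sqstm1 and Gabarap ranked 1 and 2 by both lengths. By the principal transcript they stood further apart in proliferating cells, at 181 and 138 CPM per kilobase, so their closeness there depends on the length used. All other levels, sums and shares per kilobase given here use the summed exons. Sqstm1 supplied 83.6% and 84.2% of the summed receptor level per kilobase in n-Sen libraries, against 80.0% and 79.0% in proliferating libraries, and 87.0% and 86.5% in alkaline libraries, against 85.5% and 86.1% in control-medium libraries.

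**Figure D3:**
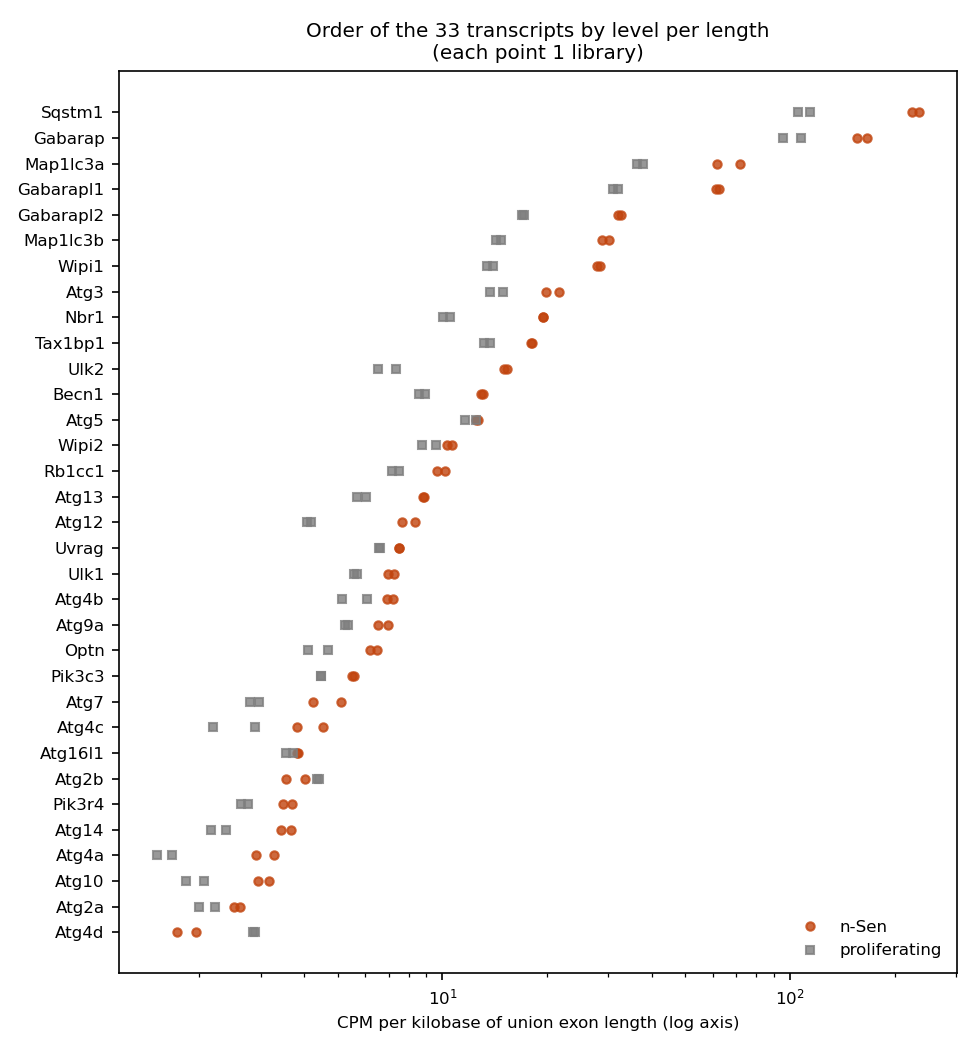
CPM per kilobase of union exon length (log axis) in each n-Sen library (circles) and proliferating library (squares), with the 33 genes ordered by their n-Sen mean. Sqstm1 and Gabarap stand at the top in both groups, and Atg4d and Atg2b are the rows where the squares lie to the right of the circles.

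The comparison of alkaline with control medium, both in n-Sen cells, bears on the stated aim of the series, to find transcripts that differ in senescent cells under alkaline conditions. Few autophagy genes moved, and by little. In the same libraries the macrophage, epithelial, neural and muscle marker sums were lower in alkaline medium, and the fibroblast and endothelial sums higher. Of the 33 genes, 4 were higher in alkaline medium, Atg2a, Atg2b, Map1lc3b and Sqstm1, 1 was lower, Rb1cc1, and 28 did not pass. The 15.2% called is close to the 20.0% of all 19129 genes tested (9.58% higher and 10.4% lower), so the count is no result about these genes as a set. Their median log2 fold change was 0.0023, against -0.0093 for all genes, and they ranged from -0.39 to 0.35. The groups did not overlap for 13 genes that were higher in alkaline medium and 7 that were lower, against 28.6% and 28.1% of all genes. Without alkaline replicate 1 or control replicate 1, 2 were higher and 0 lower, and without control replicate 2, 4 were higher and 3 lower. No library is shared with the first comparison.

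Both ATG2 paralogs, the bridge-like lipid-transfer proteins that feed the growing membrane, were higher in alkaline medium. Atg2b had 59.6 and 62.1 CPM in alkaline medium, against 46.6 and 48.7 CPM in control medium, a change of 0.35 ± 0.061 (adjusted p 0.00018). Atg2a had 27.3 and 27.4 CPM in alkaline medium, against 21.0 and 22.9 CPM in control medium, a change of 0.31 ± 0.084 (adjusted p 0.00949). The groups were apart for both genes. Atg2b passed in every alternative, with estimates between 0.31 and 0.38, and Atg2a in all but the fit without control replicate 1 (0.25, adjusted p 0.0959); the counts of Atg2a were fractional in all 8 libraries, so its level is uncertain in part. Gskip, which overlaps 2.85% of the Atg2b exons on the opposite strand, was at 0.05 ± 0.068. Atg2b is the one member called lower in n-Sen and higher in alkaline medium. Its mean was 51.0 CPM in n-Sen and 58.9 CPM in proliferating cells, and 60.9 CPM in alkaline and 47.6 CPM in control medium. The lower call in n-Sen was less firm, as it was lost in DESeq2 (adjusted p 0.0565) and the estimate was -0.12 without n-Sen replicate 2. Atg2a, Wipi2, Atg9a and Wipi1 complete the group, and the last 3 did not pass (0.06 ± 0.047, 0.14 ± 0.071 and -0.01 ± 0.050).

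Map1lc3b and Sqstm1 were slightly higher in alkaline medium. Map1lc3b had 229 and 217 CPM in alkaline medium, against 196 and 202 CPM in control medium (0.16 ± 0.046, a fold of 1.12, adjusted p 0.0149). Sqstm1 had 1023 and 1009 CPM in alkaline medium, against 916 and 957 CPM in control medium (0.11 ± 0.038, a fold of 1.08, adjusted p 0.0444). The groups do not overlap, but the calls rest on single libraries. Counts were fractional for Sqstm1 in 7 of the 8 libraries and for Map1lc3b in 6, so their levels are uncertain in part. Without alkaline replicate 1 neither passed (adjusted p 0.217 for Map1lc3b and 0.235 for Sqstm1). Sqstm1 also did not pass without alkaline replicate 2 (0.126), without control replicate 1 (0.131), with library totals (0.0859) and in the fit of all 8 libraries (0.0783). Other ATG8 members did not pass: Gabarapl1 had 109 and 112 CPM in alkaline medium, against 124 and 114 CPM in control medium (-0.11 ± 0.052, adjusted p 0.138), Gabarapl2 was at 0.12 ± 0.053, and Gabarap and Map1lc3a were at 0.04 ± 0.043 and -0.04 ± 0.055. Nbr1, Optn and Tax1bp1 were between -0.01 and 0.01.

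Rb1cc1, the scaffold of the initiation complex, had 133 and 135 CPM in alkaline medium, against 151 and 143 CPM in control medium, a fall by 0.15 on the log2 scale (SE 0.048, adjusted p 0.0312). The call was lost without alkaline replicate 1 (0.156), alkaline replicate 2 (0.0774) or control replicate 1 (0.211), in DESeq2 (0.0528) and in the fit of all 8 libraries (0.0698). The kinases it holds did not pass. Ulk1 had 48.2 and 51.5 CPM in alkaline medium, against 46.0 and 49.5 CPM in control medium (0.06 ± 0.066, adjusted p 0.638), and Ulk2 had 77.0 and 80.5 CPM in alkaline medium, against 80.9 and 77.5 CPM in control medium (-0.02 ± 0.055, adjusted p 0.901). Their groups overlap. Atg13 was at 0.13 ± 0.066. None of the class III PI3-kinase genes passed (-0.14 to 0.12), with Becn1 at 86.4 and 86.6 CPM in alkaline medium, against 87.7 and 92.1 CPM in control medium (-0.06 ± 0.053, adjusted p 0.476). The 6 conjugation genes lay between -0.11 and 0.11, among them Atg5 at 31.5 and 35.9 CPM in alkaline medium, against 32.4 and 31.0 CPM in control medium (0.08 ± 0.078, adjusted p 0.54). The ATG4 proteases all had negative estimates and none passed. Atg4a, at 5.62 and 7.78 CPM in alkaline medium against 9.31 and 8.20 CPM in control medium, had the largest estimate of the 33 in size (-0.39 ± 0.151, adjusted p 0.073); this rests on single libraries. It passed without filtering (0.0474), without alkaline replicate 2 (-0.65, 0.00264) and without control replicate 2 (-0.48, 0.0318), but was at -0.18 without alkaline replicate 1 (0.562), and did not pass without control replicate 1 or in DESeq2. Atg4d was at 12.4 and 13.6 CPM in alkaline medium and 13.8 and 13.1 CPM in control medium (-0.06 ± 0.108). Among the 21 genes without shared exons, 1 was higher (Atg2a, with the fractional counts given above) and 20 did not pass.

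A further comparison set the control buffered medium against n-Sen cells that had not been moved to it, in 1 fit of all 8 libraries. It shares its n-Sen libraries with the first comparison and its control-medium libraries with the second, and the groups come from different tables, so buffered medium, the extra 24 h and any difference between the tables cannot be told apart. Of the 33 genes, 2 were higher in control medium, 3 lower and 28 did not pass; of all 20215 genes tested, 11.1% were called (6.18% higher and 4.96% lower). Sqstm1 was higher here too, at 916 and 957 CPM in control medium against 751 and 787 CPM in n-Sen (0.28 ± 0.044, adjusted p 0.000138). Uvrag, the endosomal partner of beclin 1 (chromosome 7, 98885021 to 99141141), was the largest change, at 47.6 and 50.3 CPM in control medium against 67.7 and 67.9 CPM in n-Sen. It fell by 0.47 on the log2 scale (SE 0.060, adjusted p 1.08e-05). Both passed in every alternative, with Sqstm1 between 0.25 and 0.32 and Uvrag between -0.51 and -0.43. Uvrag overlaps Gm45187 on the opposite strand over 17.6% of its exons, and Gm45187 did not pass (-0.35 ± 0.205). The other calls, Wipi2 (0.18 ± 0.054), Ulk2 (-0.20 ± 0.061) and Map1lc3b (-0.15 ± 0.049, adjusted p 0.0499), were each lost when any of the 4 libraries compared was left out, with adjusted p from 0.0941 to 0.338.

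Across the 3 comparisons, 22 genes were higher in n-Sen than in proliferating cells and passed in neither of the others, among them Wipi1, Nbr1, Gabarapl1, Gabarapl2, Atg12 and Becn1. Sqstm1 was the one gene called higher in all 3, though its call in alkaline medium rested on single libraries, as given above. The comparison of control medium with untreated n-Sen also shares libraries with each of the others. The group means of Sqstm1 were 769 CPM in n-Sen and 368 CPM in proliferating cells, and 1016 CPM in alkaline and 936 CPM in control medium. Map1lc3b stood at 221 CPM in n-Sen and 109 CPM in proliferating cells, and at 223 CPM in alkaline and 199 CPM in control medium. Atg5 and Atg16l1 passed in none of the comparisons.

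Other autophagy genes were set beside the 33, in 4 lists. Upstream, mTORC1 restrains and the energy sensor AMPK promotes autophagy. Of 14 genes of these kinases and their regulators, 6 were higher and 3 lower in n-Sen (median 0.072), and 5 did not pass. The 64.3% called is near the 67.1% of all genes, with 42.9% higher and 21.4% lower, against 34.0% and 33.1%. AMPK subunits moved in both directions. Prkaa2, a catalytic subunit, rose by 2.70 (14.6 ± 1.31 CPM in n-Sen, 2.25 ± 0.0807 CPM in proliferating cells, SD, n = 2 each), Prkag2 by 0.91, Prkab2 by 0.60 and the mTORC1 inhibitor Akt1s1 by 0.27. Prkab1 fell by 1.21 on the log2 scale (15.1 ± 1.04 CPM in n-Sen, 35.0 ± 2.72 CPM in proliferating cells). Deptor, an inhibitory partner of mTOR, fell by 1.79 and Mlst8 by 0.36. Mtor was at 0.01 and Rptor at -0.10, and neither passed. In alkaline medium 2 of the 14 were higher and 2 lower, 28.6% called against 20.0% of all genes. Deptor fell here as well, to 3.23 ± 0.777 CPM in alkaline medium against 7.45 ± 0.612 CPM in control medium (a log2 change of -1.21, adjusted p 1.51e-05), and Prkab2 fell by 0.26. Akt1s1 and Rheb, the GTPase that activates mTORC1, rose by 0.21 and 0.15.

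Of 14 further factors of autophagosome formation, 8 were higher in n-Sen, 1 was lower and 5 did not pass (median 0.25). In either direction 64.3% were called, near the 67.1% of all genes, with 57.1% higher and 7.14% lower, against 34.0% and 33.1%. Zfyve1, the omegasome protein DFCP1, rose by 1.15 (54.3 ± 0.558 CPM in n-Sen, 24.5 ± 1.55 CPM in proliferating cells), the GTPase Rab1a by 0.44, and the ER scramblases Vmp1 and Tmem41b by 0.41 and 0.33. Wdr45b, a relative of the WIPI proteins, fell by 0.35 on the log2 scale. In alkaline medium 3 were higher, Sh3glb1 (0.27), Wdr45b (0.20) and Rab1a (0.17), none was lower and 11 did not pass, 21.4% called and again near the 20.0% of all genes. Of 14 genes of fusion with the lysosome, 11 were higher in n-Sen, 1 was lower and 2 did not pass (median 0.44), so that 78.6% were higher and 7.14% lower, against 34.0% and 33.1% of all genes. The HOPS tethering subunit Vps41 rose by 1.07 (128 ± 1.40 CPM in n-Sen, 61.2 ± 0.0893 CPM in proliferating cells), the tether Tecpr1 by 1.05, Vps39 by 0.68 and the late endosomal GTPase Rab7 by 0.47, while Vps16 fell by 0.45 on the log2 scale. The SNARE genes Stx17 and Vamp8 did not pass (0.08 and 0.14). In alkaline medium the SNARE Ykt6 (0.35) and Rab7 (0.14) were higher, and Stx17 (-0.25) and Tecpr1 (-0.24) were lower, 28.6% called against 20.0% of all genes.

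Receptors for organelles and further selective receptors and regulators numbered 19, of which 15 were higher in n-Sen, 3 were lower and 1, Wdfy3, did not pass (median 0.74), so that 78.9% were higher and 15.8% lower, against 34.0% and 33.1% of all genes. The ER-phagy receptor Ccpg1 rose by 2.26 (37.3 ± 1.10 CPM in n-Sen, 7.81 ± 0.0593 CPM in proliferating cells), the mitophagy kinase Pink1 by 1.93 (64.3 ± 1.38 CPM in n-Sen, 16.9 ± 1.59 CPM in proliferating cells), Calcoco1 by 1.53 and Sec62 by 0.97. The inner mitochondrial membrane protein Phb2, with 73.0 ± 0.386 CPM in n-Sen and 182 ± 14.6 CPM in proliferating cells, fell by 1.31 on the log2 scale, Bcl2l13 by 0.62 and the kinase gene Tbk1 by 0.28. In alkaline medium 4 were higher, Bnip3 (0.30), Stbd1 (0.28), Tollip (0.25) and Tex264 (0.16), and Pink1 was lower (60.9 ± 0.996 CPM in alkaline medium, 73.1 ± 2.86 CPM in control medium, -0.27), which is 26.3% called against 20.0% of all genes. The marker sums of macrophages and of the other cell types also differed in the same libraries as these lists, as given above.

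**Figure D4:**
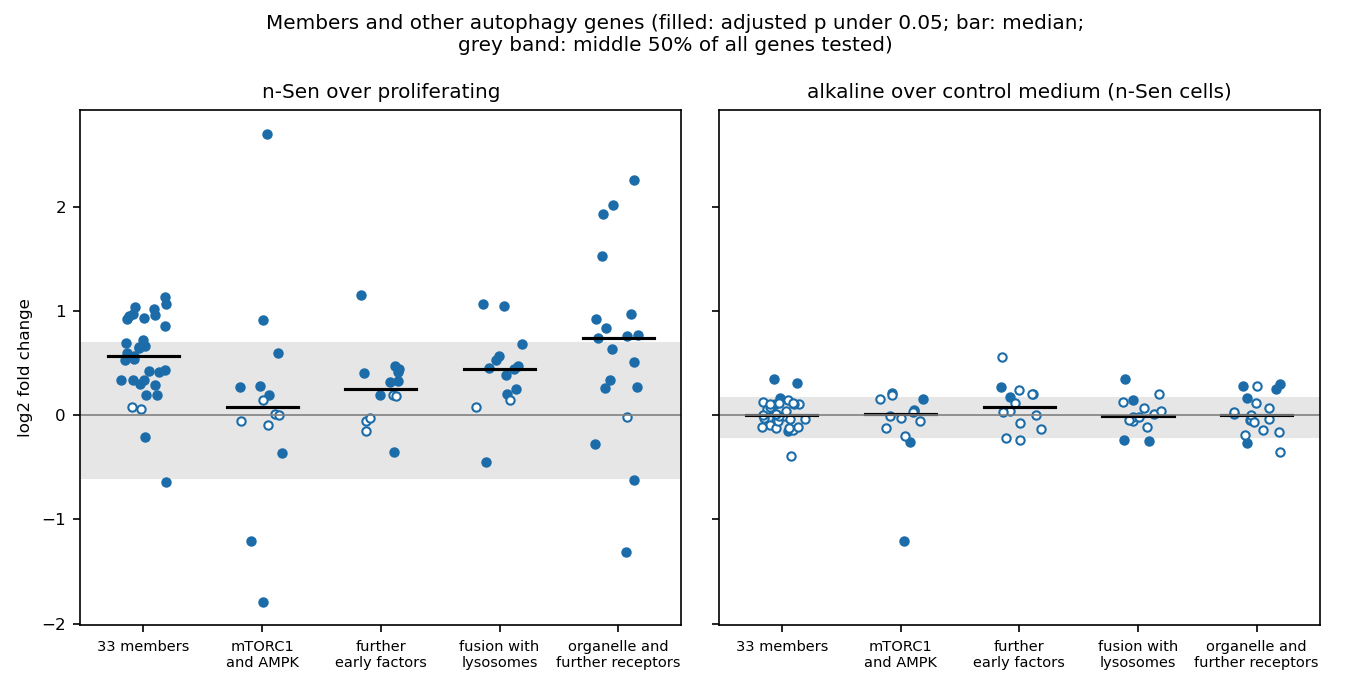
Log2 fold changes of the 33 genes and of the 4 other autophagy lists (points are genes, filled where the adjusted p was under 0.05, bars are medians, the grey band is the middle 50% of all genes tested), n-Sen over proliferating on the left and alkaline over control medium on the right. On the left the medians are 0.57, 0.072, 0.25, 0.44 and 0.74 in the order drawn; on the right most points lie near the grey band and Deptor, in the mTORC1 and AMPK list, is the lowest at -1.21.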

How the data were processed

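Polyadenylated RNA of mouse embryonic fibroblasts was extracted with TRIzol and RNeasy columns and made into strand-marked (dUTP) libraries, per the labels' protocols. The submitters' processing notes name the build mm10 and the tools HISAT2 2.1.0, fastp 0.23.2, Subread 2.0.2 with featureCounts, and DESeq2 1.34.0. Whether reads were counted by strand, and how shared reads were treated, is not given in the sources used here. The authors deposited expected counts per gene, in 2 tables of 4 libraries, and 32.7% to 33.7% of a library's nonzero values were fractional. They were rounded to whole numbers here. Symbols, exon lengths and coordinates came from GENCODE vM21, which named 54809 of 54838 IDs.

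In edgeR 4.0.16 (R 4.3.3), each table was filtered with filterByExpr and scaled by TMM, and the quasi-likelihood test was run with Benjamini-Hochberg adjustment over all genes tested, at a threshold of 0.05; control medium was set against untreated n-Sen in a fit of all 8 libraries. SE is the log2 fold change over the square root of F. CPM used the TMM-scaled sizes of all 8 libraries. The coefficient of variation between replicates was 0.0646, 0.0579 and 0.0618 in the 3 fits. Replicates differed by more than sampling noise (chi-square per degree of freedom 4.63 to 7.39), so none was merged. The procedure was also run on simulated counts in which far fewer genes changed than were called in n-Sen. That run is not used as support here. Alternatives were DESeq2 1.42.0, RLE factors, library totals, no filter, other sets of libraries, a replicate block and leaving out each library.

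The members, the other gene lists and the tests were chosen with earlier results of these data known. Values in every library are given for the 5 called members of largest fold change in each direction of either main comparison and for Sqstm1, Map1lc3b, Ulk1, Becn1 and Atg5; Uvrag, Atg4a, Atg16l1, Wipi2 and the values by library of control medium against untreated n-Sen were added after their values were seen. From each other list, up to 4 called genes of smallest p are named in each direction. Mtor, Rptor, Atg101, Stx17, Vamp8 and Wdfy3 were added among those that did not pass. Promoter sequences are RefSeq's.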

Additional observations from a re-analysis of the deposited data

How the results depend on the processing

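No called gene changed sign under any alternative, for the 33 genes and 3 comparisons. Of the 330 single-gene values recomputed per comparison, 320 kept their sign and their side of the threshold for n-Sen against proliferating cells. The same held for 296 in alkaline against control medium and 294 in control medium against untreated n-Sen. Whether the sizes stayed within their spread was not counted. In n-Sen, 29 genes higher and 2 lower became 28 and 1 in DESeq2; leaving out 1 library gave 26 to 29 higher and 1 to 2 lower, with 26 and 1 without n-Sen replicate 2. In alkaline medium, 4 higher and 1 lower became 0 lower in DESeq2 and in the fit of all 8 libraries, and 2 lower without a filter. Leaving out 1 library gave 2 to 4 higher and 0 to 3 lower, with 2 higher and 0 lower without alkaline replicate 1 or control replicate 1, and 4 higher and 3 lower without control replicate 2 (Rb1cc1, Atg4a and Gabarapl1). In control medium against untreated n-Sen, 2 higher and 3 lower became 1 to 1 higher and 1 to 1 lower, Sqstm1 and Uvrag, when any of the 4 libraries compared was left out; a fit of those 4 alone gave 2 and 4. Fewer samples remain in each such fit; the cause of the other shifts was not tested. Same-numbered replicates did not deviate together (correlations of -0.000844, -0.00364 and -0.00403), so the numbers are not taken as pairs; with a replicate block the counts were 29 higher and 2 lower, 4 and 2 (Atg4a added, -0.40, adjusted p 0.026), and 2 and 1. No scaling moved the median of all genes by 0.1. At 2 libraries a group, whether a gene passed could depend on a single library for changes of a size up to that of Atg4a in alkaline medium (log2 -0.39), and did so for Atg2a in n-Sen (0.29) and in alkaline medium (0.31), and the low levels of Atg10 and Atg4a carry the widest SE.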
